A study of Homo sapiens with 4 samples.

Results

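The core autophagy machinery was examined as 38 genes, found by their symbols among the 20323 genes of the ribosome footprint counts. They comprise the initiation kinase complex, the phosphatidylinositol 3-kinase complex and the proteins that supply and shape the growing membrane. They also comprise the conjugation cascade that attaches ubiquitin-like proteins to the membrane, the ATG8 proteins themselves, the cargo receptors and 1 fusion tether. All 38 had a row, and 37 passed the filter on low counts, which kept 12560 genes. ATG9A and WDR45 each had 2 rows, of which the one with more counts was used. The footprints came from HCT-8 cells, a human line of colorectal adenocarcinoma, in a form resistant to the drug 5-fluorouracil. The OE group (2 libraries) received a plasmid that overexpresses METTL14, the partner of METTL3 in the enzyme that writes N6-methyladenosine on messages, and the NC group (2 libraries) received a negative control plasmid. Cells of both groups were resistant, were transfected and were exposed to cycloheximide at 100 ug/mL, which holds ribosomes on messages. The sources used here name neither the plasmid's promoter nor the number of resistant clones.

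Autophagy encloses cytoplasm in a double membrane that later fuses with the lysosome. The ULK1 kinase complex starts the process, the PIK3C3 complex marks the site with phosphatidylinositol 3-phosphate, and ATG9A vesicles and ATG2 proteins bring lipid. An enzyme cascade resembling ubiquitination then couples ATG8 proteins to the membrane, where receptors such as SQSTM1 dock with their cargo. In intestinal tumour cells autophagy is known as a route by which cells endure nutrient and drug stress.

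The deposited estimated counts summed to between 7742274 (OE replicate 1) and 24392875 (OE replicate 2). Values below are counts scaled to library size multiplied by edgeR's TMM factor for the library (CPM). This factor was 1.36 for OE replicate 1 and 0.907 for OE replicate 2, against 0.889 and 0.912 for the NC libraries. It places OE replicate 1 lower against NC than library totals alone would. On this scale a count of 0 allows up to 0.286 CPM for OE replicate 1 and 0.136 CPM for OE replicate 2. Tested members had between 100 and 64705 counts in a library. The OE libraries resembled each other less (Pearson r of 0.863 across 12560 genes, which are not independent replicates) than the NC libraries (0.983). METTL14 had 448 and 91.2 CPM in OE, against 44.5 and 47.6 CPM in NC. Its 2 OE libraries lay above both NC libraries and far from each other. Footprint counts combine message level with ribosome occupancy, so they are not translational efficiencies. Within this single cell line, fewer cells with a message cannot be told apart from less RNA per cell.

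Cell type markers were read beside the members, although the cells were of a single line. Of 10 intestinal epithelial markers 9 were tested, of which 4 (EPCAM, CDH1, VIL1 and CLDN7) lay lower in both OE libraries, 1 (CDX2) lay higher and 4 overlapped. Over all genes 20.4% lay lower and 19.9% higher. EPCAM had 554 and 1208 CPM in OE, against 1452.5 and 1379 CPM in NC, and VIL1 had 32.9 and 40.3 CPM in OE, against 74.01 and 82.2 CPM in NC. Summed over the list the epithelial level was 5631 and 21384 CPM in OE, against 18439 and 18030 CPM in NC, while CEACAM5 was near 0. The largest parts of this sum were 2 keratins that were split between the OE libraries. KRT8 had 2595 and 10639 CPM in OE, against 9116 and 8886 CPM in NC. KRT18 had 1691 and 8499 CPM in OE, against 6238 and 6178 CPM in NC. Of 5 leukocyte markers, CD14 and CD68 were tested, and both lay lower in both OE libraries. CD14 had 2.47 and 2.80 CPM in OE, against 11.5 and 8.97 CPM in NC, and CD68 had 40.8 and 28.7 CPM in OE, against 70.6 and 75.5 CPM in NC. PTPRC had at most 1 count in a library and CD3E had 0 in all. The leukocyte list summed to 43.5 and 31.5 CPM in OE, against 82.1 and 84.5 CPM in NC. Of 4 fibroblast markers, COL1A1 and PDGFRB were tested and lay lower in both OE libraries, and the list summed to 6.57 and 2.98 CPM in OE, against 9.73 and 10.3 CPM in NC. The 3 endothelial markers summed to at most 0.410 CPM in a library, with CDH5 at 0 in all. ALB and HBB, of liver and red cells, summed to 1.71 and 0.452 CPM in OE, against 0.154 and 0.234 CPM in NC. The part of these marker levels in the members' values was not tested.

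None of the 37 tested members passed the threshold in the comparison of OE with NC. In edgeR's quasi-likelihood test 0 members had an adjusted p below 0.05 (Benjamini-Hochberg, 12560 genes), against 0% of all genes, and the members' adjusted p lay between 0.734 and 0.988. At an unadjusted p below 0.05 there were 4 members (WDR45, ATG4D, ATG9A and TAX1BP1), beside 5.5% of all genes. DESeq2's Wald test also called 0 members, beside 0.199% of all genes. Both OE libraries lay above both NC libraries for 7 members, where 19.9% of all genes did, and below them for 8, where 20.4% of all genes did. These shares are close to the background. The remaining 22 overlapped between the groups, and 11 of those lay above both NC libraries in 1 OE library and below both in the other. Such a split was seen for 29.7% of the tested members, beside 38.9% of all genes.

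The members' median log2 fold change was 0.14, beside 0.09 over all genes tested. As a difference from the NC mean in log2 CPM, it was 0.09 for OE replicate 1 alone and 0.0034 for OE replicate 2 alone. The median difference between replicates, taken without sign, was 0.43 in OE and 0.14 in NC for the members, against 0.83 and 0.17 over all genes. In OE replicate 1 the differences went with the level of a gene. Of the 24 members above the median level of all genes (23.0 CPM), 12 lay below both NC libraries and 9 above, while of the 13 members at or below that level 2 lay below and 8 above. Over all genes 62.9% of those above the median level lay below both NC libraries there, and 28.1% of those at or below it. Above both NC libraries lay 31.2% of all genes above the median level and 62.2% of those at or below it. The part of this level dependence in single members' values was not tested.

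Which members passed depended on the OE library that was kept. Without OE replicate 1, edgeR's test called 5 members higher (WDR45, ATG4B, ATG4D, ATG5 and SQSTM1) and 7 lower (RB1CC1, PIK3C3, ATG9A, GABARAPL1, NBR1, TAX1BP1 and CALCOCO2), while it called 34.1% of all genes. Without OE replicate 2 it called 11 higher and 11 lower of 38 tested, beside 60.9% of all genes. Each of these fits assumes that the lone OE library varies as the NC libraries do, and both use the same NC libraries. They therefore describe single OE libraries and are read below as values side by side.

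**Figure D1:**
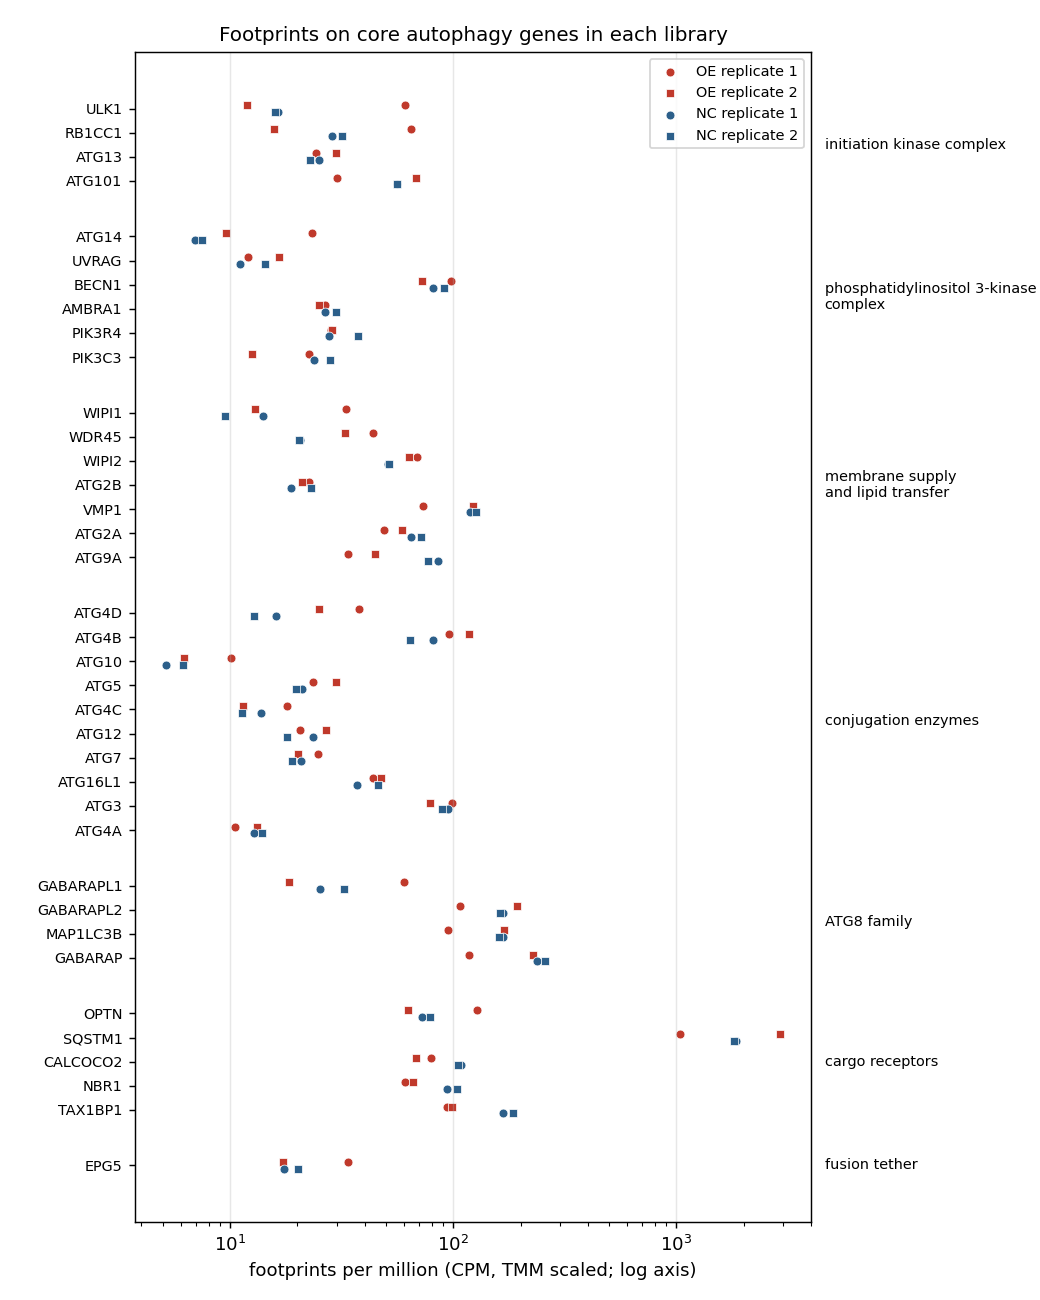
Footprints on the 37 tested members in each library, in CPM on a log axis, grouped by role and ordered within a role by fold change. Circles are replicate 1 and squares replicate 2, red for OE and blue for NC; the NC points of a gene lie close together, while the OE points of ULK1 (60.9 and 11.9 CPM) and SQSTM1 (1038 and 2926 CPM) lie far apart.

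**Figure D2:**
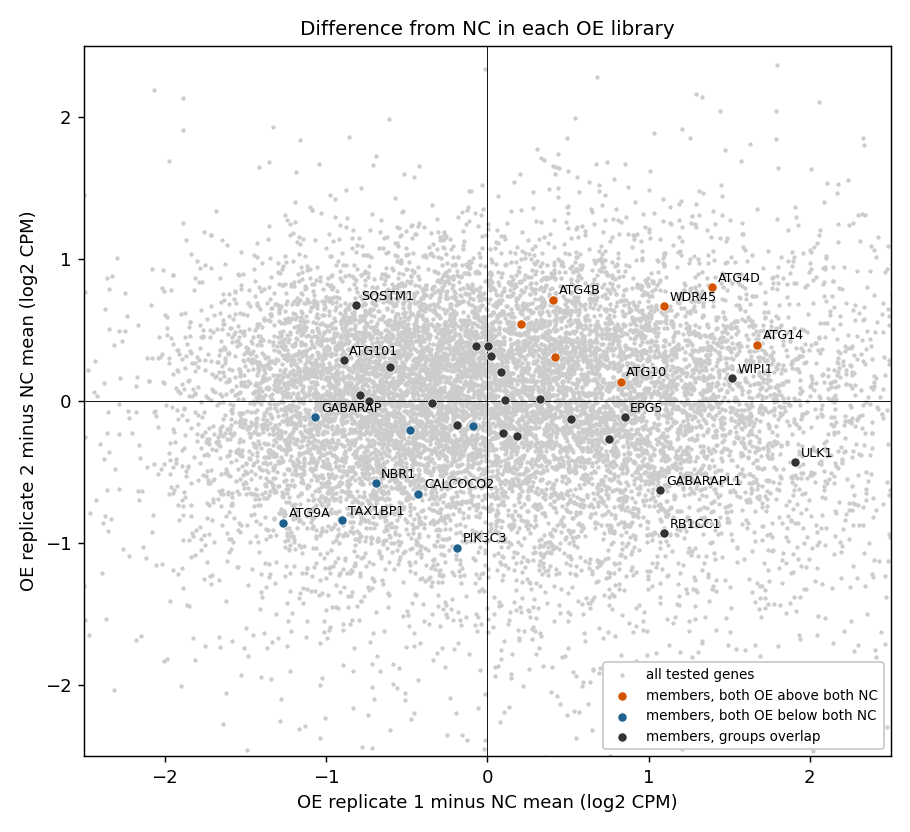
Difference from the NC mean in log2 CPM, OE replicate 1 on the horizontal axis and OE replicate 2 on the vertical axis, for all tested genes (grey) and the 37 members (coloured). ATG4D and WDR45 sit at the upper right, ATG9A and TAX1BP1 at the lower left and SQSTM1 at the upper left; 480 of the 12560 genes lie outside the axes, which end at 2.5.

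In the initiation kinase complex no tested member was separated between the groups. ULK1, the kinase that starts autophagosome formation, had 60.9 and 11.9 CPM in OE, against 16.4 and 15.8 CPM in NC. One OE library lay far above NC and the other below it, so the log2 fold change of 1.17 (SE 0.76) averages opposite differences. RB1CC1 (FIP200), the scaffold that holds the complex, showed the same split, with 64.6 and 15.8 CPM in OE and 28.6 and 31.8 CPM in NC. ATG101, which stabilises ATG13, was split the other way at 30.1 and 68.3 CPM in OE, against 55.8 and 56.0 CPM in NC. ATG13, the adaptor between ULK1 and RB1CC1, was even across libraries, with 24.2 and 29.8 CPM in OE and 24.9 and 22.8 CPM in NC (log2 fold change 0.18, SE 0.29). ULK2, the paralogue of ULK1, was too low to test, with counts of 10 and 0 in OE and 3 and 3.02 in NC. Without OE replicate 1 the log2 fold changes of ULK1, RB1CC1 and ATG101 were -0.43, -0.93 and 0.29, whereas the other OE library gave 1.88, 1.06 and -0.93.

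In the phosphatidylinositol 3-kinase complex, ATG14 lay higher and PIK3C3 and AMBRA1 lower in both OE libraries. That is 1 higher and 2 lower of 6, where 19.9% of all genes lay higher and 20.4% lower. ATG14, which directs the complex to the site where the autophagosome forms, had 23.3 and 9.54 CPM in OE, against 6.95 and 7.504 CPM in NC. OE replicate 2 and NC replicate 2 overlapped within counting error for ATG14, with exact Poisson 95% intervals of 8.30 to 10.9 and 6.26 to 8.92 CPM. The log2 fold change of ATG14, 1.18 (SE 0.52), was the highest of the members and did not pass the threshold. Leaving out OE replicate 1 gave 0.40, and leaving out OE replicate 2 gave 1.65. PIK3C3 (VPS34), the lipid kinase itself, had 22.6 and 12.5 CPM in OE, against 23.7 and 27.9 CPM in NC (log2 fold change -0.56, SE 0.39). OE replicate 1 was hardly below NC replicate 1, with exact Poisson 95% intervals of 19.8 to 25.6 and 21.6 to 25.96 CPM, which cover counting error only. Without OE replicate 1 PIK3C3 had -1.04, and -0.23 without OE replicate 2. AMBRA1, a regulator that binds BECN1, had 26.6 and 24.9 CPM in OE and 26.7 and 29.8 CPM in NC, a gap within counting error at its narrowest (23.5 to 29.9 CPM for OE replicate 1, 24.5 to 29.1 CPM for NC replicate 1).

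The other subunits overlapped between the groups. BECN1, the scaffold of the complex, had 97.7 and 72.3 CPM in OE, against 81.0 and 91.2 CPM in NC. PIK3R4 (VPS15), the regulatory subunit of PIK3C3, had 28.3 and 28.6 CPM in OE and 27.7 and 37.5 CPM in NC. UVRAG, the subunit that takes the place of ATG14 in the endosomal form of the complex, had 11.99 and 16.5 CPM in OE and 11.1 and 14.4 CPM in NC. Their log2 fold changes were -0.02, -0.20 and 0.17, all smaller than their standard errors of 0.33, 0.31 and 0.36. Scaling by library totals alone, which moved the median of all genes to 0.40, turned BECN1, PIK3R4 and AMBRA1 to 0.35, 0.13 and 0.20 and left PIK3C3 at -0.15 with overlapping groups.

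Promoter sequences were read for the members because many autophagy and lysosome genes are controlled by TFEB and TFE3, factors that bind an E-box. RefSeq promoters of build GRCh38.p14, from 250 bases before to 50 bases after the start of a gene, were at hand for 34 members. The palindromic letters CACGTG occurred in 2 of the 34 (5.88%), ATG14 and ATG3, beside 7.26% of the 35116 promoters in the table. Both are shown over the 60 bases before the start, 5′ to 3′ on the minus strand, with the motif in capitals. ATG3 holds 2 copies in its promoter sequence, of which 1 is marked.
ATG14, chr14:55411831-55411890: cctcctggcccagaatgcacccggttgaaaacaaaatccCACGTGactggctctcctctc
ATG3, chr3:112561963-112562022: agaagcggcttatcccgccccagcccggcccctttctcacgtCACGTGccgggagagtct
A match shows only that these letters are present. ATG14 had the log2 fold change of 1.18 given above, and ATG3 had -0.05.

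Among the proteins that supply and shape the membrane, ATG9A and ATG2A lay lower and WDR45 and WIPI2 higher in both OE libraries. That is 2 lower and 2 higher of 7, where 20.4% of all genes lay lower and 19.9% higher. ATG9A (ENSG00000198925), a lipid scramblase carried in the vesicles that seed the membrane, had 33.6 and 44.7 CPM in OE, against 85.2 and 77.0 CPM in NC. The group means were 39.1 ± 7.83 CPM in OE and 81.1 ± 5.76 CPM in NC (SD, n = 2 each), a fold of 0.483. Its log2 fold change of -1.05 (SE 0.32) was the lowest of the members, and the adjusted p in edgeR's quasi-likelihood test was 0.734 (unadjusted 0.0221). A second gene model of that symbol (ENSG00000284820) held 100.57 and 268.29 counts in OE, against 141.94 and 46.38 in NC. With both models summed the log2 fold change of ATG9A was -0.78, and that of TAX1BP1 was then lower at -0.87. ATG2A, which carries lipid into the growing membrane, had 48.8 and 59.1 CPM in OE, against 64.5 and 71.99 CPM in NC. Its log2 fold change of -0.34 was -0.036 when scaled by library totals alone, where its groups overlapped. Its paralogue ATG2B had 22.5 and 20.9 CPM in OE and 18.8 and 23.1 CPM in NC, and overlapped between the groups.

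The WIPI proteins, which read phosphatidylinositol 3-phosphate, all had positive fold changes. WDR45 (WIPI4; ENSG00000196998), which binds ATG2 proteins, had 43.8 and 32.6 CPM in OE, against 20.4 and 20.4 CPM in NC. Both OE libraries lay above NC, with a log2 fold change of 0.90 (SE 0.31) and a fold of 1.87 and an unadjusted p of 0.0320 in edgeR's test. WIPI2, which recruits ATG16L1, had 68.8 and 63.6 CPM in OE and 51.0 and 51.6 CPM in NC, a small and even difference (log2 fold change 0.37, SE 0.29). WIPI1 had 33.1 and 12.9 CPM in OE, against 14.01 and 9.44 CPM in NC, so only OE replicate 1 lay above both NC libraries. VMP1, a scramblase of the endoplasmic reticulum, had 73.4 and 123 CPM in OE and 119 and 126 CPM in NC, and OE replicate 1 alone lay below NC. Without OE replicate 1 the log2 fold changes of ATG9A, ATG2A, WDR45, WIPI2, WIPI1 and VMP1 were -0.86, -0.20, 0.67, 0.31, 0.13 and 0.0048. In the fit without OE replicate 2 the same genes had -1.31, -0.52, 1.06, 0.38, 1.45 and -0.78.

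Of the 10 members of the conjugation cascade, 4 lay higher in both OE libraries, 0 lay lower and 6 overlapped. Over all genes 19.9% lay higher and 20.4% lower. The median log2 fold change of these 10 members was 0.21, beside 0.09 over all genes. The ATG4 proteases, which trim ATG8 proteins before conjugation and release them afterwards, held the clearest separations. ATG4D (ENSG00000130734) had 37.9 and 25.05 CPM in OE, against 16.02 and 12.8 CPM in NC. Its log2 fold change was 1.12 (SE 0.35), a fold of 2.18, and edgeR gave an adjusted p of 0.734 (unadjusted 0.0235). ATG4B, known as the most active of the proteases, had 95.7 and 118 CPM in OE and 81.0 and 64.1 CPM in NC (log2 fold change 0.56, SE 0.33). ATG4A had 10.5 and 13.2 CPM in OE, against 12.8 and 13.8 CPM in NC, and ATG4C had 17.9 and 11.4 CPM in OE, against 13.8 and 11.3 CPM in NC. Neither ATG4A nor ATG4C was separated between the groups.

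As a share of the counts of the 4 proteases, a measure that scaling of libraries does not touch, ATG4D held 23.4% and 14.9% in OE, against 12.96% and 12.6% in NC. The exact binomial 95% intervals, for counting error only, were 13.8% to 16.1% in OE replicate 2 and 11.6% to 14.4% in NC replicate 1, so the smaller of the OE shares overlapped NC within counting error. ATG4A held 6.47% and 7.87% in OE, against 10.4% and 13.6% in NC, lower in both OE libraries. Shares of ATG4B, at 59.1% and 70.4% in OE and 65.5% and 62.8% in NC, went opposite ways in the OE libraries.

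The other members of this group belong to the ATG12 and ATG8 cascades. ATG5, which forms the E3-like complex with ATG12 and ATG16L1, had 23.6 and 29.7 CPM in OE, against 21.1 and 19.8 CPM in NC (log2 fold change 0.39, SE 0.29; 0.24 with overlapping groups after quantile normalization). For ATG5, OE replicate 1 and NC replicate 1 overlapped within counting error (exact Poisson 95% intervals of 20.8 to 26.7 and 19.1 to 23.2 CPM). ATG10, the E2-like enzyme for ATG12, had 10.1 and 6.19 CPM in OE and 5.15 and 6.16 CPM in NC. OE replicate 2 and NC replicate 2 could not be told apart for ATG10 at this depth, with exact Poisson 95% intervals of 5.20 to 7.32 and 5.03 to 7.45 CPM. ATG12 had 20.6 and 26.8 CPM in OE, against 23.4 and 17.9 CPM in NC, and ATG16L1 had 43.8 and 47.5 CPM in OE, against 37.1 and 45.8 CPM in NC. The E1-like enzyme ATG7 had 24.8 and 20.0 CPM in OE, against 20.7 and 18.9 CPM in NC. ATG3, the E2-like enzyme for ATG8 proteins, had 98.5 and 78.9 CPM in OE, against 94.6 and 89.3 CPM in NC. The groups overlapped for ATG12, ATG16L1, ATG7 and ATG3, with log2 fold changes of 0.20, 0.14, 0.18 and -0.05. Without OE replicate 1 ATG4D, ATG4B, ATG5 and ATG10 had 0.80, 0.70, 0.54 and 0.14, and without OE replicate 2 they had 1.35, 0.36, 0.17 and 0.80.

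**Figure D3:**
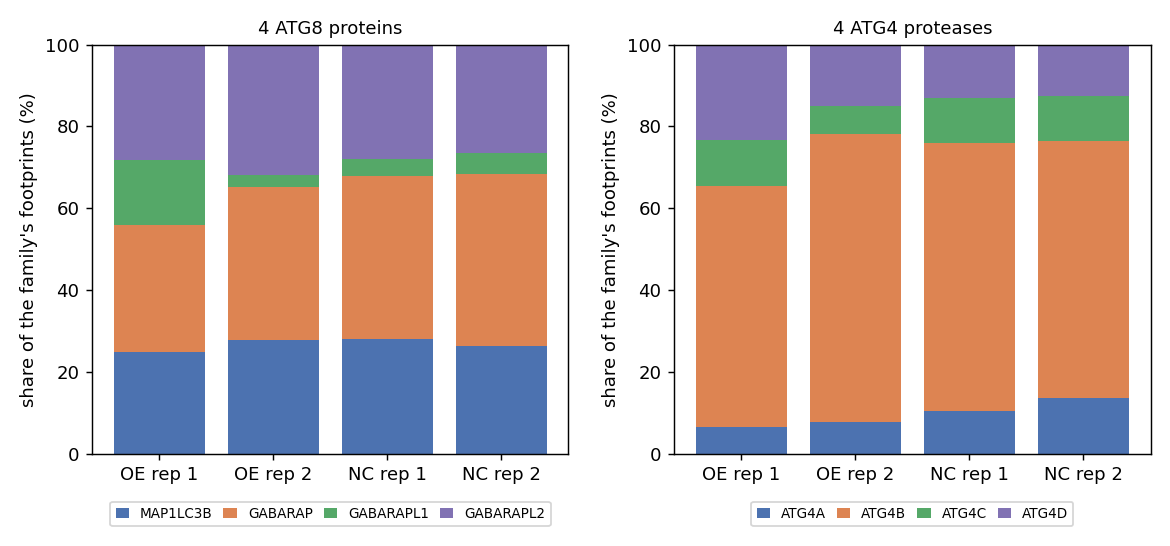
Share of each gene in the footprint counts of its family, in percent, for the 4 ATG8 proteins (left) and the 4 ATG4 proteases (right), one stacked bar per library. GABARAPL1 held 15.8% and 3.02% in the OE libraries, against 4.22% and 5.29% in NC, and ATG4D held 23.4% and 14.9% in OE.

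The ATG8 proteins, the ubiquitin-like proteins that coat the membrane and bind receptors, went opposite ways in the OE libraries for 3 of the 4. Over all genes 38.9% did so. MAP1LC3B (LC3B) had 94.7 and 169 CPM in OE, against 168 and 161 CPM in NC. For MAP1LC3B, OE replicate 2 and NC replicate 1 overlapped within counting error (exact Poisson 95% intervals of 163.7 to 174.6 and 162.0 to 173.6 CPM). GABARAP had 118 and 228 CPM in OE, against 237 and 256 CPM in NC, and was the one member of the family below NC in both OE libraries. For GABARAP too, OE replicate 2 and NC replicate 1 overlapped within counting error (221.9 to 234.5 and 230.4 to 244.1 CPM). GABARAPL2 had 108 and 193 CPM in OE, against 166 and 161 CPM in NC. These 3 shared one pattern, low in OE replicate 1 and near or above NC in OE replicate 2, with log2 fold changes of -0.32, -0.51 and -0.12 and standard errors of 0.42, 0.47 and 0.43. GABARAPL1 ran the other way, with 60.2 and 18.4 CPM in OE, against 25.2 and 32.3 CPM in NC (log2 fold change 0.45, SE 0.60). Without OE replicate 1 the values of MAP1LC3B, GABARAP, GABARAPL2 and GABARAPL1 were 0.04, -0.11, 0.24 and -0.64, and -0.83, -1.11, -0.65 and 1.03 without OE replicate 2. GABARAP had -0.29 after quantile normalization, where its groups overlapped.

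Within the family, GABARAPL1 took 15.8% and 3.02% of the counts in the OE libraries, against 4.22% and 5.29% in NC. Its share was thus high in one OE library and low in the other, beyond counting error in both (exact binomial 95% intervals of 14.7% to 17.0% and 2.74% to 3.32% in OE, and 3.87% to 4.61% and 4.87% to 5.74% in NC). GABARAP took 31.0% and 37.5% in OE, against 39.8% and 42.0% in NC, lower in both OE libraries. GABARAPL2 took 28.3% and 31.8% in OE, against 27.9% and 26.4% in NC, above both NC libraries by a narrow margin in OE replicate 1. For MAP1LC3B the shares were 24.9% and 27.8% in OE, against 28.1% and 26.3% in NC. Reads shared with near-identical copies such as MAP1LC3B2, which had 12.63 counts in OE replicate 1 and 0 in the other libraries, make small differences in MAP1LC3B uncertain.

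Among the 5 cargo receptors, which bind ATG8 proteins on one side and cargo on the other, NBR1, TAX1BP1 and CALCOCO2 lay lower in both OE libraries. That is 3 lower and 0 higher of 5, where 20.4% of all genes lay lower and 19.9% higher. TAX1BP1 (ENSG00000106052), a receptor for ubiquitinated cargo, had 93.9 and 98.2 CPM in OE, against 167 and 184 CPM in NC. The OE libraries were close to each other, at 96.1 ± 3.01 CPM in OE and 176 ± 12 CPM in NC (SD, n = 2 each). Its log2 fold change was -0.87 (SE 0.33), a fold of 0.547, and edgeR gave an adjusted p of 0.734 (unadjusted 0.0452). NBR1, which works beside SQSTM1 on protein aggregates, had 60.9 and 65.9 CPM in OE, against 93.3 and 104 CPM in NC (log2 fold change -0.64, SE 0.30). CALCOCO2 (NDP52), a receptor for bacteria and damaged mitochondria, had 79.1 and 67.7 CPM in OE, against 108 and 105 CPM in NC (log2 fold change -0.54, SE 0.31). The log2 fold changes of TAX1BP1, NBR1 and CALCOCO2 were -0.84, -0.58 and -0.65 without OE replicate 1, and -0.94, -0.73 and -0.47 without OE replicate 2. Scaled by library totals alone, CALCOCO2 had -0.18 and overlapped between the groups, while TAX1BP1 and NBR1 had -0.55 and -0.32 and stayed apart.

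SQSTM1 and OPTN were split between the OE libraries. SQSTM1 (p62; ENSG00000161011), the receptor that gathers ubiquitinated proteins and also releases NRF2 by binding KEAP1, had 1038 and 2926 CPM in OE, against 1852 and 1806 CPM in NC. One OE library lay below and the other above NC, beyond counting error (exact Poisson 95% intervals of 1019 to 1058 CPM and 2903 to 2948 CPM in OE). After quantile normalization this split was gone, and both OE libraries lay above both NC libraries with a log2 fold change of 0.43. Its log2 fold change was 0.12 (SE 0.74), with 0.68 without OE replicate 1 and -0.86 without OE replicate 2. OPTN (optineurin), a receptor in the clearance of mitochondria, had 127.5 and 62.9 CPM in OE, against 72.5 and 79.0 CPM in NC. That is the opposite split, with -0.26 without OE replicate 1 and 0.71 without OE replicate 2. SQSTM1 took 35.7% and 60.1% of all counts of the 37 members in OE, against 47.4% and 46.0% in NC. These shares are not corrected for the length of the messages.

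**Figure D4:**
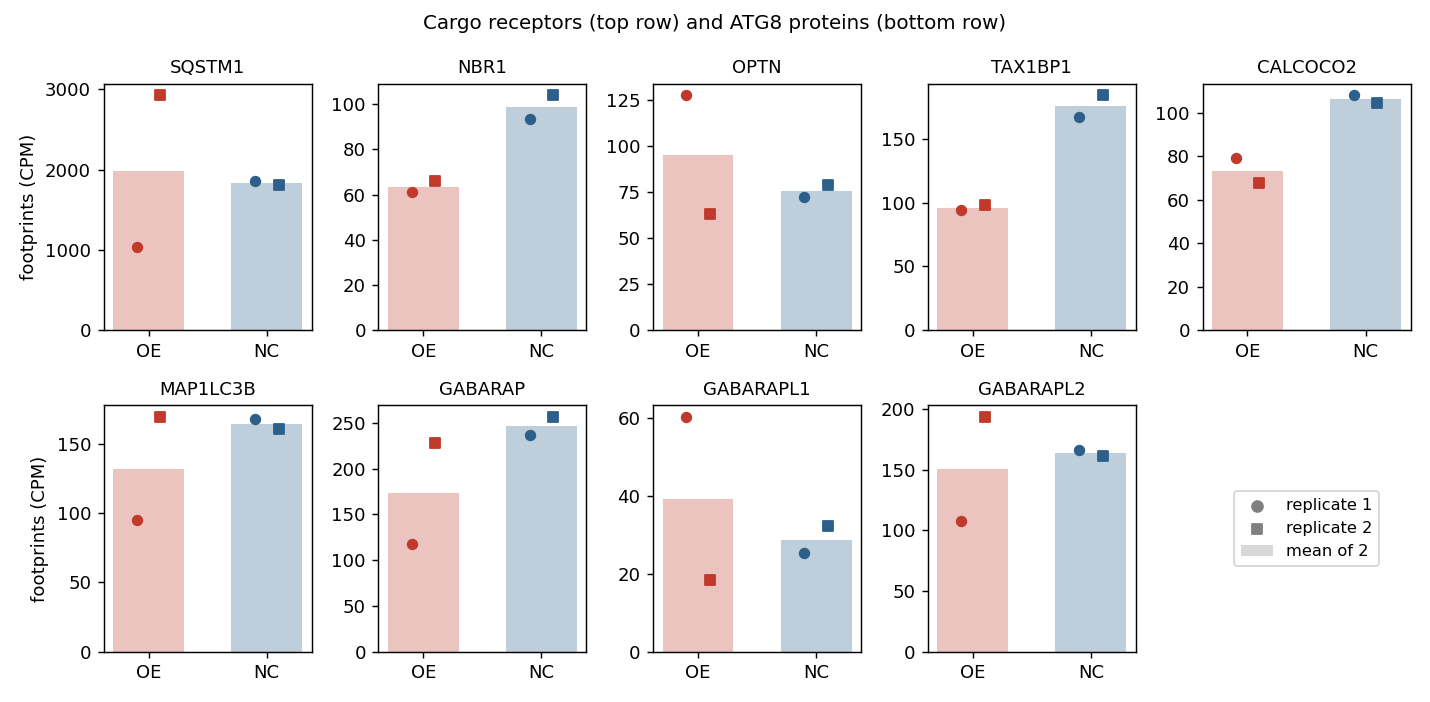
Footprints in CPM on the 5 cargo receptors (top row) and the 4 ATG8 proteins (bottom row), with OE left of NC in each panel. Bars are means of 2 libraries and points the libraries; for NBR1, TAX1BP1 and CALCOCO2 both OE points lie below both NC points, while for SQSTM1, OPTN and GABARAPL1 the OE points lie on either side of NC on this scale (SQSTM1 lay above NC in both OE libraries after quantile normalization).

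EPG5, the tether that joins autophagosomes to late endosomes and lysosomes, had 33.8 and 17.3 CPM in OE, against 17.4 and 20.1 CPM in NC. OE replicate 1 lay above both NC libraries and OE replicate 2 just below both, and the log2 fold change of 0.44 (SE 0.41) became -0.11 when OE replicate 1 was left out and 0.81 when OE replicate 2 was.

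The rest of the pathway was read from 56 further genes in 4 lists, of which 48 were tested. By edgeR's quasi-likelihood test 0 of the 48 had an adjusted p below 0.05 and 3 had an unadjusted p below 0.05 (MLST8, SEC62 and BNIP3L), beside 5.5% of all genes. Both OE libraries lay above both NC libraries for 11 of them and below for 9, near the 19.9% and 20.4% of all genes. Their median log2 fold change was 0.01, beside 0.14 for the core members and 0.09 over all genes.

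Receptors on organelles included 5 of 14 below NC in both OE libraries, beside 20.4% of all genes, and 1 above, beside 19.9%. SEC62, a receptor for the endoplasmic reticulum and part of its translocon, had 70.6 and 111.5 CPM in OE, against 185.8 and 200.8 CPM in NC (log2 fold change -1.09, SE 0.39). BNIP3L, a receptor for mitochondria, had 43.8 and 34.3 CPM in OE, against 67.3 and 68.2 CPM in NC. Both genes were lower in each OE library than in each NC library.

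Upstream kinases and transcription factors included 5 of 14 above NC in both OE libraries and 2 below, where all genes had 19.9% above and 20.4% below. MLST8, a subunit of the mTOR complexes that restrain ULK1, had 103 and 91.2 CPM in OE, against 54.1 and 47.5 CPM in NC (log2 fold change 0.94, SE 0.31). TFE3, a transcription factor of autophagy and lysosome genes, had 29.5 and 22.2 CPM in OE, against 15.7 and 15.7 CPM in NC (log2 fold change 0.72, SE 0.31). For both, the OE libraries lay above NC. TFEB, named with TFE3 for the promoters, lay below NC in both OE libraries, at a low level. It had 1.90 and 1.76 CPM in OE, against 2.27 and 2.81 CPM in NC (log2 fold change -0.47, SE 0.58). These values rest on 20 and 39.09 counts in OE and 44 and 48 counts in NC, and the fold change was smaller than its standard error.

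Of 13 genes for fusion with the lysosome, 3 lay above NC in both OE libraries and 1 below, and of 7 paralogues and accessory subunits 2 lay above and 1 below. Over all genes these shares were 19.9% and 20.4%. PLEKHM1, an adaptor of late endosomes, had 34.9 and 17.3 CPM in OE and 12.4 and 12.4 CPM in NC, and the SNARE protein STX17 had 16.8 and 8.09 CPM in OE and 5.82 and 7.09 CPM in NC. Among the paralogues and accessory subunits, TMEM41B, a scramblase that works with VMP1, had 28.2 and 36.6 CPM in OE and 49.3 and 49.2 CPM in NC, whereas ATG16L2, a paralogue of ATG16L1, had 9.04 and 2.35 CPM in OE and 1.91 and 2.23 CPM in NC. ATG16L2 held 95 and 52 counts in OE, against 37 and 38 in NC, and its CPM in OE replicate 2 was hardly above NC replicate 2. The paralogues ATG9B, MAP1LC3A, MAP1LC3B2, MAP1LC3C and RUBCNL did not pass the filter on low counts.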

How the data were processed

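Ribosome footprints of 4 libraries (2 OE, 2 NC), were analysed. The series' design text describes the experiment as repeated independently. The authors deposited estimated counts per gene and library, not scaled to depth, in a count column per the file headers. They were read as estimates because 13.8% to 14.7% of a library's values hold a fraction, and were rounded before fitting. RSEM, StringTie, HISAT2, Bowtie2, fastp and the build hg18 are listed in the submitters' processing notes. Versions, strand and multi-read settings are not stated there, so overlapping and near-identical genes are uncertain. Chromosome positions of genes are left out because no annotation of that build was used.

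Genes passed edgeR's filterByExpr (minimum count 10, total 15, proportion 0.7). OE was compared with NC in R 4.3.3 with edgeR 4.0.16: TMM scaling, the quasi-likelihood test with only the group in the model, and p-values adjusted by Benjamini and Hochberg's method over 12560 genes at a threshold of 0.05. A standard error is the log2 fold change divided by the square root of F. Log2 CPM used a prior count of 2. DESeq2 1.42.0, limma 3.58.1 on quantile-normalized log2 CPM, RLE and total scaling, other filters, each library left out, a replicate block and summed gene models were alternatives. P-values measure only the spread between these libraries. Replicates differed beyond sampling noise (chi-square per degree of freedom of 344.5 in OE and 13.2 in NC).

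The members and lists were chosen with earlier results of these data known. All members were named, with every library's value. Up to 2 genes with the smallest p per further list were named, and TFEB was added beside TFE3.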

Additional observations from a re-analysis of the deposited data

How the results depend on the processing

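No member passed the threshold by DESeq2's Wald test, with RLE factors, library totals or quantile normalization, under either filter, with the replicate block, or with summed gene models. The count of all genes called, 0 in the fit reported, was 25 by DESeq2 and 24 with the replicate block, and between 7 and 7969 with a library left out. Without a library the members called numbered between 0 and 22, and those at an unadjusted p below 0.05, 4 in the fit reported, between 0 and 23. The latter count was 2 by DESeq2, 2 with quantile normalization, 3 without a filter, 3 with summed gene models and 1 with the replicate block. The members' median of 0.14 was 0.45 with library totals, where the median of all genes was 0.40 and not 0.09, and between -0.020 and 0.076 without a library. It was 0.09 with the replicate block. Quantile normalization moved the median of all genes to -0.02.

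Other settings for the counts of separated members were chosen after seeing the data. With library totals 11 members lay above and 4 below NC in both OE libraries, beside 30.2% and 11.7% of all genes. Leaving out a library gave between 10 and 18 above and between 9 and 15 below, as fewer libraries then have to be apart. Over all genes the shares were then 25.4% to 46.9% above and 24.8% to 45.5% below.

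Same-numbered libraries did not deviate together (r = -0.097 across 12560 genes). This value cannot decide whether the numbers pair libraries, because the OE libraries differed far more from each other than the NC libraries did. The labels state no pairing, so the numbers are used as names in the fit reported and as a block in an alternative.

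Of the 37 tested members, 16 kept the direction of the fold change in every alternative and 21 did not. With library totals ATG101, BECN1, PIK3R4, AMBRA1, ATG3, ATG4A and GABARAPL2 turned to 0.033, 0.35, 0.13, 0.20, 0.31, 0.12 and 0.13. With quantile normalization BECN1, UVRAG, ATG2B, ATG3 and GABARAPL2 turned to 0.16, -0.063, -0.088, 0.13 and 0.058. BECN1 was 0.023 under the filter of 50 counts in 2 libraries, and SQSTM1 was -0.069 with the replicate block. Over the fits without 1 library the ranges were as follows. ULK1 ran between -0.43 and 1.88, ATG13 between -0.021 and 0.32, ATG101 between -0.93 and 0.29, RB1CC1 between -0.93 and 1.06, BECN1 between -0.25 and 0.14, PIK3R4 between -0.41 and 0.0034, and UVRAG between -0.12 and 0.38. ATG2B ran between -0.11 and 0.17, VMP1 between -0.78 and 0.0048, ATG3 between -0.22 and 0.059, ATG4C between -0.14 and 0.47, ATG12 between -0.049 and 0.39, and ATG16L1 between -0.021 and 0.26. MAP1LC3B ran between -0.83 and 0.044, GABARAPL1 between -0.64 and 1.03, GABARAPL2 between -0.65 and 0.24, SQSTM1 between -0.86 and 0.68, OPTN between -0.26 and 0.71, and EPG5 between -0.11 and 0.81. The cause of these differences was not tested. Depth limits ULK2, with at most 10 counts in a library.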
